A study of Mus musculus with 2 samples.

Results

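The Nodal pathway was followed here through 6 genes, chosen by symbol: Nodal, Lefty1, Lefty2, Smad7, Foxh1 and Acvr2b, out of 32285 genes in the count tables. All 6 were found, each on 1 row. They were measured by droplet single-cell RNA sequencing in mouse embryonic stem cells of the C3H/HeSn-Paf/J strain. Each library pooled 9 independently derived lines, 3 from XX, 3 from XO and 3 from XY embryos, cultured on gelatin with irradiated embryonic fibroblasts as feeders, in medium with serum and LIF (leukaemia inhibitory factor). Early-passage cells gave the time 1 library, and cells passaged 10 more times gave the time 2 library. There was 1 library per time point and no map from cells to lines, so no test between time points was possible. None was run between cell classes, and the intervals below cover counting error only.

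Nodal is a secreted ligand of the transforming growth factor beta family that signals through activin receptors and a co-receptor of the Cripto family to phosphorylate SMAD2 and SMAD3. With SMAD4 and the DNA-binding partner FOXH1 these switch on targets that include Nodal itself and the Lefty genes, whose secreted products block Nodal. In the early mouse embryo the pathway maintains the epiblast and then patterns it into mesendoderm, and mouse embryonic stem cells express the ligand and its inhibitors in culture.

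The 2 inhibitor genes lie side by side and are close copies, so the question of which reads belong to which comes first. In GRCm38, Lefty2 (ENSMUSG00000066652) spans chr1:180893108-180899103 and Lefty1 (ENSMUSG00000038793) spans chr1:180935022-180938400, both protein-coding and on the + strand. Their coding sequences are 1107 bases each and 91.9% identical. Over the last 500 bases of the 2 transcripts, where a 3′ library draws most of its reads, the aligned positions were 60.6% identical. None of the 411 windows of 90 bases in the Lefty1 end occurred in any Lefty2 transcript, and none of the 411 in the Lefty2 end occurred in any Lefty1 transcript. Windows upstream of these ends were not searched. The last 120 coding bases differ at only 8 positions between the genes. In Lefty1, whose 3′ untranslated region is 425 bases, they lie partly upstream of the 500 bases.

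The libraries held 1735810403 unique molecular identifiers (UMIs) at time 1 and 1843588321 at time 2. After filtering, 23173 cells remained at time 1 and 25469 at time 2, of which 159 shared a barcode between the libraries. Cells fell into 14 clusters, built without the 6 genes and 27 other pathway genes and called here by their leading gene. The naive-like class held 1487 cells at time 1 and 18628 at time 2, the primed-like class 6034 and 4513, and the mesendoderm-like class 1115 and 459. Different clusters filled a class at the 2 times. The Jam2-led cluster gave 1191 of the naive-like cells at time 1, and the Gm46332-led and Nanos3-led clusters gave 10601 and 5859 at time 2. Primed-like cells were 5950 Fgf8-led at time 1 and 4289 Id1-led at time 2. The Id1-led cluster had a marker of primed epiblast, of mesendoderm and of neural cells among its leading genes, so its name rests on weak ground. The mesendoderm-like class was 1 cluster, led by Krt8, with all 7 mesendoderm markers raised at least 2-fold over the other cells. That cluster also had 3 of 5 primed, 2 of 5 endoderm, 1 trophoblast and 1 neural marker raised. At Leiden resolution 1.0 a Krt8-led cluster of 1044 and 481 cells was unnamed. There the mesendoderm-like cells were 211 and 240 Lhx1-led cells at times 1 and 2, so this name too depends on the clustering. At the resolution of 0.5 used here, a further 13812 cells at time 1 and 866 at time 2 lay in clusters left unnamed.

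Feeders set the background. Fibroblast-like cells (458 at time 1 and 668 at time 2) had Pou5f1, a pluripotency gene they should lack, at 253 and 335 CPM (UMIs of a gene scaled to a total of 1000000 in the group), against 805 and 794 in naive-like cells. Lefty1 stood at 137 and 101 CPM in them, Lefty2 had intervals of 60.0 to 66.1 and 48.0 to 52.0 CPM, and Nodal stood at 19.9 and 17.9. A level or share at or below that of the fibroblast-like cells of the same library is read as background. Barcodes of 500 to 1000 UMIs, far below the minimum for a cell, had Lefty1 at 272 CPM at time 1 and 174 at time 2, and Lefty2 at 187 and 134. They had Pou5f1 at 954 and 818 CPM, no less than naive-like cells. A level at or below theirs thus does not mark a gene as absent.

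**Figure D1:**
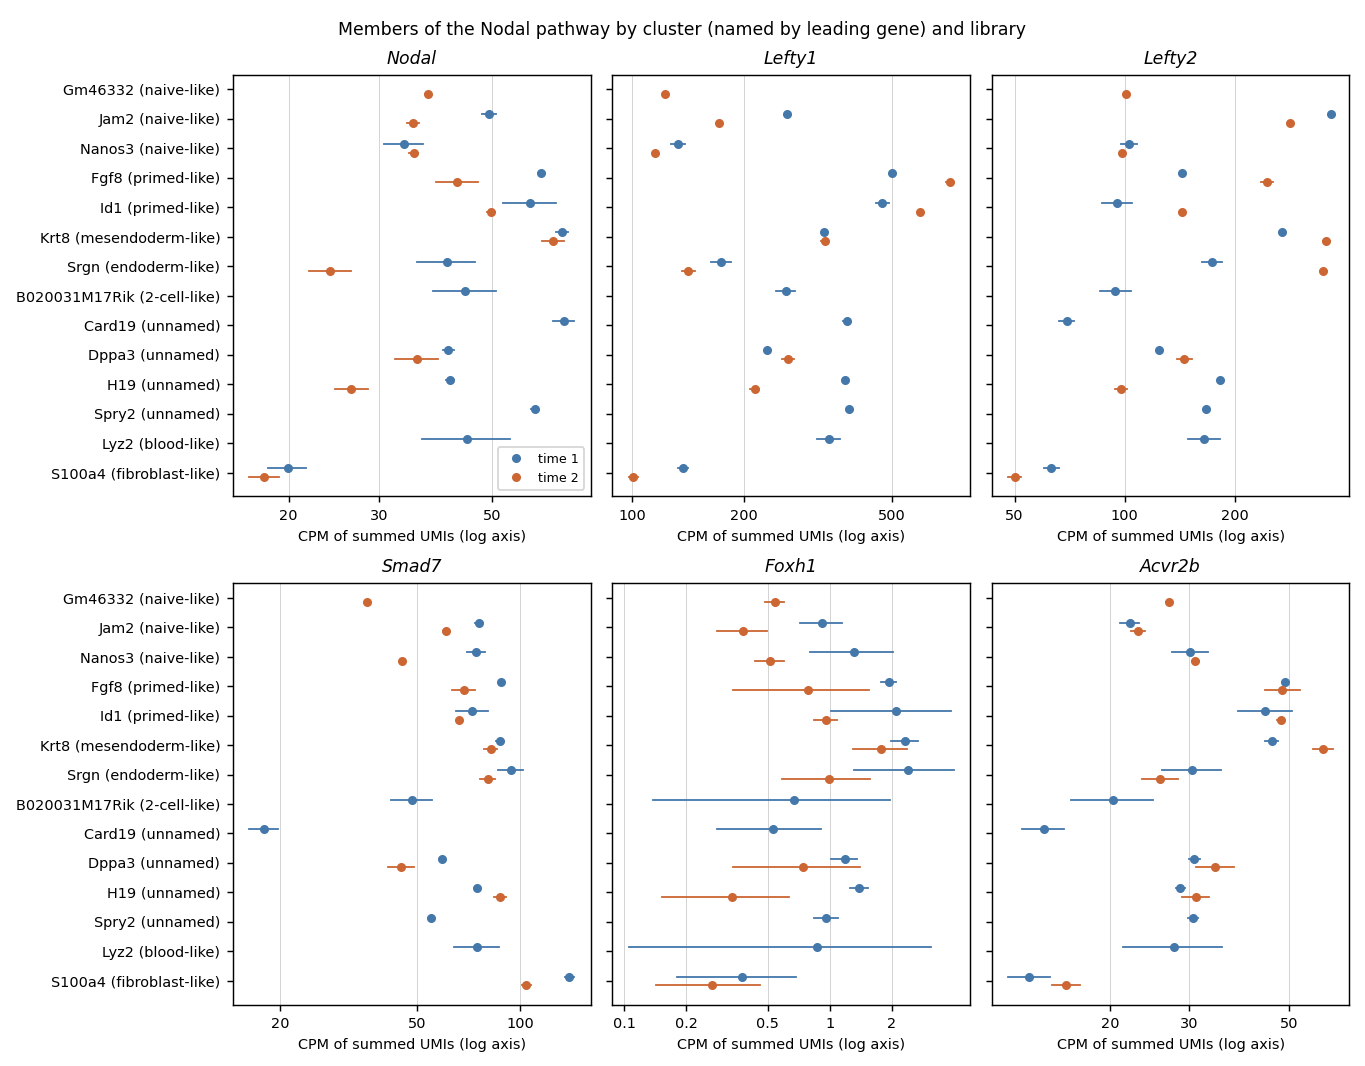
Level of each gene by cluster (rows, named by leading gene with the class in brackets) and library (colour), as CPM of summed UMIs on a log axis whose range differs between panels; bars are exact Poisson 95% intervals and clusters under 50 cells in a library are left out. Lefty1 lies highest in the Fgf8-led and Id1-led clusters and Lefty2 in the Jam2-led, Krt8-led and, at time 2, Srgn-led clusters.

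Nodal, the ligand (ENSMUSG00000037171, chr10:61417972-61425338, + strand), differed by less than 2-fold between the classes. It stood at 46.7 CPM (45.3 to 48.1) in naive-like, 62.3 (61.4 to 63.2) in primed-like and 68.4 (66.6 to 70.3) in mesendoderm-like cells at time 1. At time 2 the values were 36.5 CPM (36.1 to 36.8), 49.4 (48.6 to 50.3) and 65.8 (62.6 to 69.0). The order naive-like, primed-like, mesendoderm-like was thus the same at both times, and every class lay above the fibroblast-like cells. The low-UMI barcodes had Nodal at 43.8 CPM (37.4 to 50.9) at time 1 and 34.5 (29.4 to 40.1) at time 2, intervals that hold the naive-like values of both libraries. The 2 mesendoderm-like values overlapped in their intervals, as did mesendoderm-like cells at time 2 and primed-like cells at time 1. With each cell thinned to 10000 UMIs, a Nodal UMI was found in 35.8% of naive-like, 43.8% of primed-like and 47.2% of mesendoderm-like cells at time 1, and in 19.7% of fibroblast-like cells. At time 2 the shares were 28.6%, 38.2%, 42.0% and 10.3%. With all UMIs, 85.3% of naive-like and 47.6% of fibroblast-like cells at time 1 had one, at median depths of 59904 and 43502 UMIs.

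Lefty1, a secreted Nodal inhibitor, was highest in primed-like cells in both libraries. Its level was 238 CPM (235 to 241) in naive-like, 500 (498 to 503) in primed-like and 328 (324 to 332) in mesendoderm-like cells at time 1, and 127 (126 to 127), 601 (598 to 604) and 330 (323 to 337) at time 2. Naive-like cells were lowest of the 3 classes, above the fibroblast-like cells of the same library and below its low-UMI barcodes. In primed-like cells 85.8% at time 1 and 88.3% at time 2 had a Lefty1 UMI at 10000 UMIs per cell, against 64.2% and 45.9% of naive-like cells and 59.2% and 31.7% of fibroblast-like cells. The intervals of the naive-like share (61.7% to 66.6%) and the fibroblast-like share (54.5% to 63.7%) overlapped at time 1, so that these 2 shares were not told apart there. Unthinned, the shares were 93.7% and 87.3%, at median depths of 59904 and 43502 UMIs.

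Lefty2, the other Nodal inhibitor, was highest elsewhere. It stood at 319 CPM (315 to 323) in naive-like, 142 (141 to 144) in primed-like and 269 (265 to 272) in mesendoderm-like cells at time 1. At time 2 it stood at 123 (122 to 124), 148 (146 to 149) and 356 (349 to 363). Naive-like cells were highest of the 3 classes at time 1 and lowest at time 2. Every class lay above the fibroblast-like cells, but primed-like cells at time 1 and naive-like cells at time 2 lay below the low-UMI barcodes of their libraries (187 and 134 CPM). Their clusters differed: Lefty2 was at 367 CPM at time 1 and 284 at time 2 in the Jam2-led cluster, and at 103 and 98.2 in the Nanos3-led cluster. The Gm46332-led cluster had 101 CPM at time 2. Outside the 3 classes, the Srgn-led cluster (endoderm-like, 118 and 294 cells) had 173 and 350 CPM.

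Smad7, an intracellular inhibitor that blocks the activated receptors (ENSMUSG00000025880, chr18:75367529-75395935, + strand), stood at 74.9 CPM in naive-like, 87.6 in primed-like and 87.1 in mesendoderm-like cells at time 1, and at 41.7, 66.5 and 82.0 at time 2. Fibroblast-like cells had more in both libraries, 139 and 104 CPM, so they give no background for this gene. Acvr2b, a type II receptor that Nodal uses (ENSMUSG00000061393, chr9:119402118-119434995, + strand), stood at 23.6, 48.9 and 45.7 CPM at time 1 and at 27.7, 47.9 and 59.5 at time 2 in the same order of classes. Naive-like cells were thus lowest for both genes at both times, and for Acvr2b the fibroblast-like cells lay lower still, at 13.2 and 16.0 CPM. The low-UMI barcodes had Smad7 at 65.4 and 54.9 CPM and Acvr2b at 29.2 (24.0 to 35.1) and 29.4 (24.8 to 34.7) at times 1 and 2, so that naive-like cells lay below them for Smad7 at time 2 and, at both times, at or under their level for Acvr2b. Gm47320 overlaps Acvr2b on the opposite strand, and no annotated gene overlaps another member. Foxh1, the DNA-binding partner of the SMADs (ENSMUSG00000033837, chr15:76668225-76669948, - strand), was close to the limit of detection. It reached 2.32 CPM (1.99 to 2.68) in mesendoderm-like cells at time 1, from 180 UMIs, and 0.510 CPM (0.469 to 0.555) in naive-like cells at time 2. It stayed under the 5 CPM required for a ratio in every class, and no ratio is read for it.

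Classes were compared by the log2 ratio of CPM plus 1 of their summed UMIs, and a gene was called past 2-fold in either direction. Primed-like over naive-like cells at time 1, 3 of the 5 members that could be compared were called. Lefty1 was 1.07 higher (counting SE 0.01), Acvr2b 1.02 higher (0.03) and Lefty2 1.16 lower, at a log2 ratio of -1.16 (0.01). Among all 9753 genes compared, 14.4% were called. The call of Acvr2b ended with 5 CPM added in place of 1 (0.91), and that of Lefty1 with doublets kept (0.60), at Leiden resolution 1.0 (0.77) and with pathway genes in the clustering (0.85). At time 2 only Lefty1 was called, at 2.24 (0.01), with Acvr2b at 0.77 and Lefty2 at 0.26, beside 9.62% of all genes. Without the Jam2-led cluster, which gave 1191 of the 1487 naive-like cells of time 1, the Lefty2 ratio at time 1 turned to 0.40, Acvr2b stood at 0.68 and Lefty1 at 1.87. At time 2 Lefty1 was at 2.31 without that cluster. Without the Id1-led cluster, which gave 4289 of the 4513 primed-like cells of time 2, the ratios at time 2 were 2.49 for Lefty1 and 0.99 for Lefty2.

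**Figure D2:**
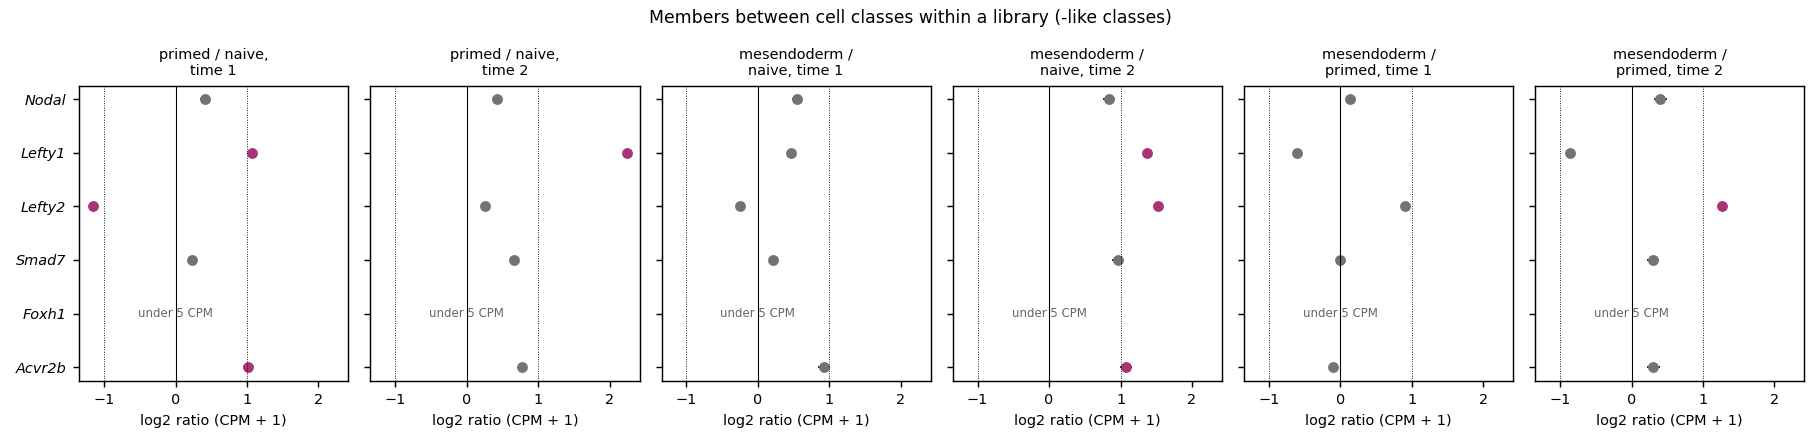
Log2 ratio of CPM plus 1 between cell classes for the 6 genes, 1 panel per pair of classes and library; coloured points lie past 2-fold (dotted lines) and bars are 95% counting intervals, most of them narrower than the point. Lefty1 lies above 1 for primed-like over naive-like cells at both times, while Lefty2 changes side between them.

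Mesendoderm-like over naive-like cells, no member was called at time 1, where Acvr2b stood at 0.92, Nodal at 0.54 and Lefty2 at -0.25, beside 19.2% of all genes. Acvr2b passed 2-fold there at Leiden resolution 1.0 (1.43), with pathway genes in the clustering (1.47) and in thinned cells (1.06). At time 2 Lefty2 (1.52, SE 0.02), Lefty1 (1.37, SE 0.02) and Acvr2b (1.08, SE 0.04) were called, with Smad7 at 0.96 and Nodal at 0.83, beside 22.0% of all genes. The call of Acvr2b ended with 5 CPM added (0.98), with trimmed-mean scaling (0.74) and with doublets kept (0.97), and Smad7 passed 2-fold in 4 other settings, at most at 1.12. Without the Jam2-led cluster, Lefty1 (1.27) and Lefty2 (1.31) were past 2-fold at time 1 too, as were 17.7% of all genes. Mesendoderm-like over primed-like cells, none was called at time 1 (Lefty2 at 0.91, 4.21% of all genes) and Lefty2 alone at time 2 (1.26, SE 0.02, 9.12% of all genes). Lefty1 went the other way, at -0.61 and -0.86. At time 1 Lefty2 passed 2-fold at Leiden resolution 1.0 (1.75), with pathway genes in the clustering (1.53) and in thinned cells (1.04). With doublets kept, where the Id1-led cluster was unnamed, the time 2 ratio of Lefty2 was 0.33. Without the Id1-led cluster the time 2 ratio of Lefty2 was 0.54 and that of Lefty1 -1.12, which ends the call of Lefty2 and makes that of Lefty1. At Leiden resolution 1.0 (0.51 and -1.41) and with pathway genes in the clustering (0.59 and -1.10) Lefty1 was likewise called in place of Lefty2. There both classes differed: the Id1-led cluster was unnamed, and the mesendoderm-like cells were an Lhx1-led cluster of 240 and 268 cells at time 2 in place of the 459 Krt8-led cells.

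Over 10 further passages, Lefty2 was the only member called within a class. In naive-like cells its log2 ratio of time 2 over time 1 was -1.37 (counting SE 0.01), with Lefty1 at -0.90, Smad7 at -0.83, Nodal at -0.35 and Acvr2b at 0.22. Of all genes, 4.88% were called. With trimmed-mean scaling Lefty2 was at -1.16, Lefty1 at -0.70, Smad7 at -0.63, Nodal at -0.15 and Acvr2b at 0.42. In primed-like cells none was called (2.05% of all genes), with Lefty1 at 0.27, Lefty2 at 0.05, Nodal at -0.33 and Smad7 at -0.39. That ratio sets mostly Fgf8-led cells of time 1 against mostly Id1-led cells of time 2, and without the Id1-led cluster Lefty2 stood at 0.77, Lefty1 at 0.52 and Nodal at -0.54. In mesendoderm-like cells none was called (2.79% of all genes), with Lefty2 at 0.40 and Acvr2b at 0.37. The naive-like call of Lefty2 was not made once the Jam2-led cluster was left out. Whether the make-up of the class accounts for the call was not tested. Without the Jam2-led cluster Lefty2 was at -0.10 and Lefty1 at -0.17, while Smad7 stayed at -0.84. That Smad7 ratio still mixes clusters, with 250 Nanos3-led and 46 Gm46332-led cells at time 1 against 5859 and 10601 at time 2. Within the Nanos3-led cluster Smad7 was at -0.70. In thinned Jam2-led cells the mean of Smad7 went from 0.75 to 0.61 UMIs. X dosage, the ratio of a cell's X-linked to its autosomal counts, moved with the clusters of the class. Among naive-like cells without Y-linked UMIs, 1115 were of high and 216 of low X dosage at time 1, against 2516 and 13760 at time 2. Lefty2 stood at 369 CPM at time 1 and 257 at time 2 within the former, and at 104 and 101 within the latter. Which of the 9 lines made up a class at each time is not known, so passage and line cannot be told apart. Over all filtered cells together Lefty2 was at -0.39.

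Within single clusters the ratios differed from those of the class. The Jam2-led cluster had Lefty1 at -0.61, Nodal at -0.48 and Lefty2 at -0.37 (0.992% of all genes called), and the Nanos3-led cluster had Smad7 at -0.70 with the other members between -0.21 and 0.06 (1.18%). In the Fgf8-led cluster the Lefty genes were higher at time 2, Lefty2 at 0.77 and Lefty1 at 0.52, and Nodal was lower at -0.54 (0.302%). This is the same comparison as the primed-like class without the Id1-led cluster, with 224 cells at time 2. In the H19-led cluster, unnamed, Lefty2 was at -0.90, Lefty1 at -0.81 and Nodal at -0.62 (1.14%). In the Dppa3-led cluster, also unnamed, no member lay beyond 0.39 in either direction (0.232%). No member was called in any of these 5 clusters. The point values of Lefty1 and Lefty2 had the same sign in each of them, although the sign itself differed between clusters. In the Nanos3-led cluster the value of Lefty2 was within counting error of no change, so its sign is not read there.

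**Figure D3:**
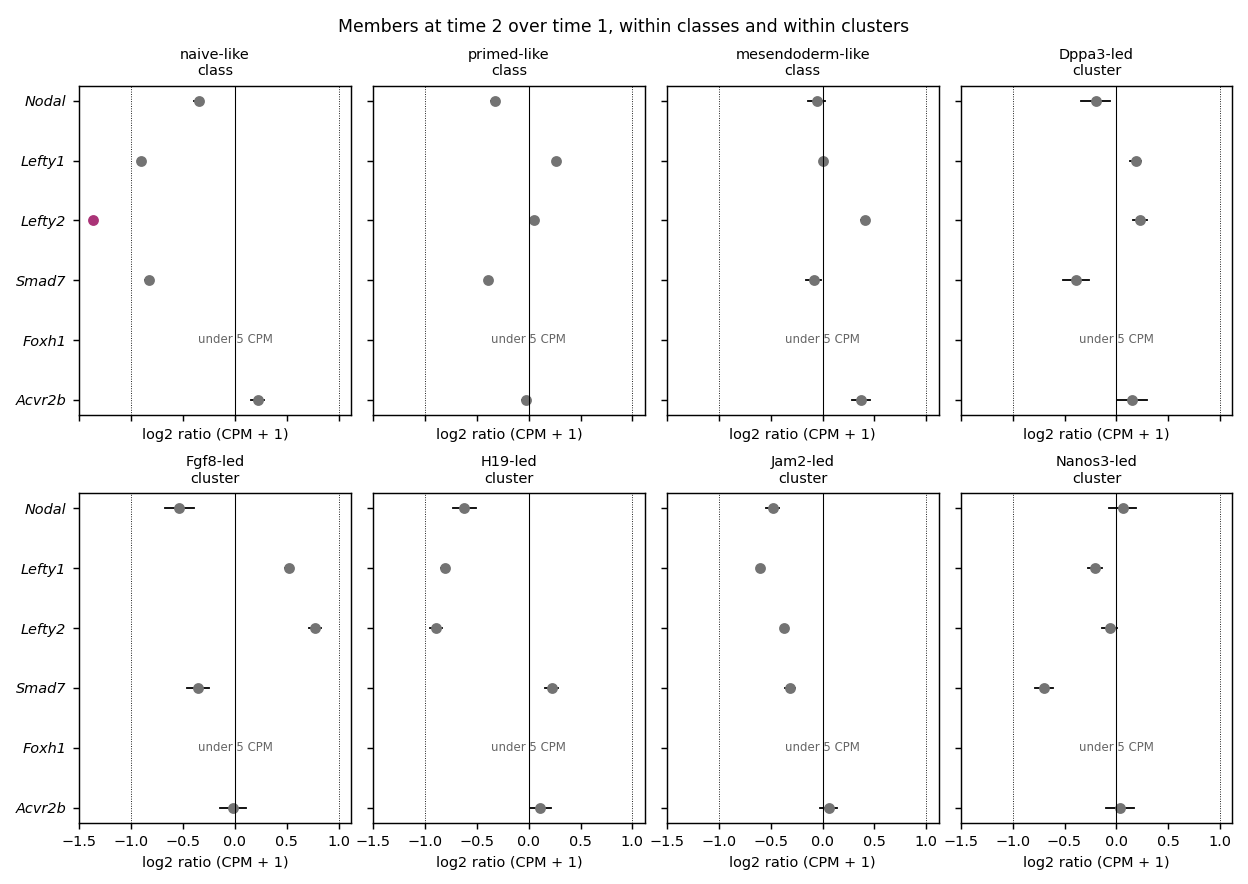
Log2 ratio of CPM plus 1 at time 2 over time 1 for the 6 genes, within the 3 classes and within the 5 naive-like, primed-like or unnamed clusters with at least 200 cells in both libraries; the coloured point lies past 2-fold (dotted lines) and bars are 95% counting intervals. Only Lefty2 in the naive-like class lies past 2-fold, and within the Jam2-led and Nanos3-led clusters it lies between -1 and 0.

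The ratio of the inhibitor pair differed between clusters. UMIs count molecules at the 3′ end, so the ratio of Lefty2 to Lefty1 UMIs is compared between clusters and not read as which gene is more abundant. It was 0.286 (0.283 to 0.289) in the Fgf8-led cluster at time 1 and 0.341 (0.326 to 0.357) at time 2, and 0.241 in the Id1-led cluster at time 2. In the Nanos3-led cluster it was 0.775 and 0.854, in the Krt8-led cluster 0.818 and 1.08, and in the Jam2-led cluster 1.41 and 1.66. It reached 2.47 (2.36 to 2.59) in the Srgn-led cluster at time 2, against 1.00 at time 1. Fibroblast-like cells had 0.460 and 0.497, and the low-UMI barcodes 0.689 and 0.768. Primed-like clusters thus lay under the ratio of the low-UMI barcodes in both libraries, as did fibroblast-like cells. So did the unnamed H19-led (0.487 and 0.457) and Dppa3-led (0.537 and 0.554) clusters, and the Spry2-led cluster at time 1 (0.435). The Jam2-led cluster lay above that ratio in both libraries, as did the Nanos3-led, Krt8-led and Srgn-led clusters. Intervals of the Nanos3-led cluster overlapped those of the barcodes. Neither side was thus particular to primed-like or Jam2-led cells.

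**Figure D4:**
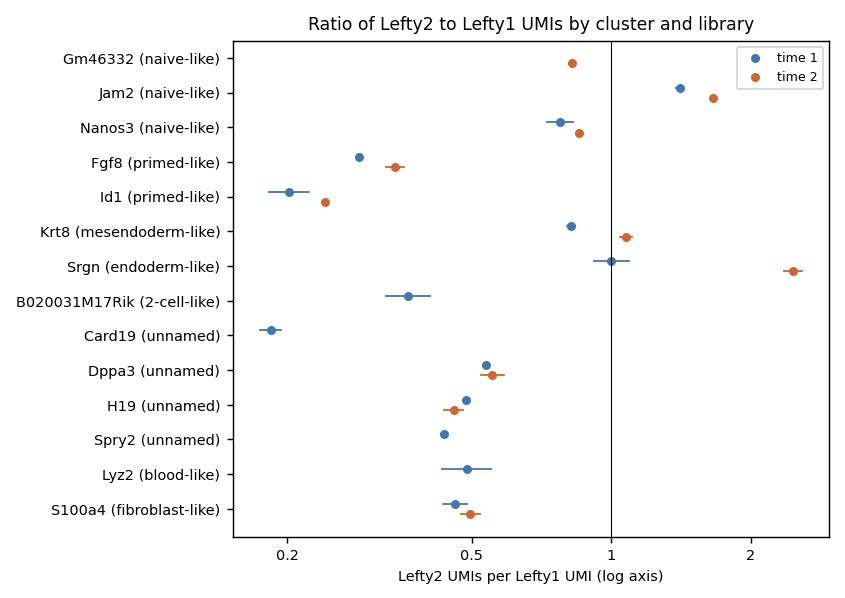
Lefty2 UMIs per Lefty1 UMI (log axis) by cluster (rows, class in brackets) and library (colour), with 95% counting intervals; clusters under 50 cells in a library are left out. Primed-like clusters lie between 0.202 and 0.341, and the Jam2-led cluster lies above 1 at both times.

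Across single cells, Lefty1 and Lefty2 were the pair of members with the highest correlation in every class and library. They also had the most UMIs per thinned cell, with means of at least 1.26, against at most 0.89 for any other member. Counting noise lowers the correlation of pairs with a sparser gene, and the ranking was not corrected for it. The Pearson correlation of log2(UMIs + 1) of the Lefty pair at 10000 UMIs per cell was 0.32 and 0.30 in naive-like cells at times 1 and 2. It was 0.22 and 0.23 in primed-like and 0.19 and 0.33 in mesendoderm-like cells. Within the clusters it ranged from 0.22 to 0.42. The cells of a group share a library, and in counts this sparse a weak correlation is no finding. The other 14 pairs ranged from -0.07 to 0.11 in the 6 groups of class and time, Nodal and Lefty1 from 0.04 to 0.10. Within the clusters they ranged from -0.12 to 0.21, the highest near the lowest value of the Lefty pair. Grouped by their Lefty1 UMIs, primed-like cells at time 1 had a mean of 0.87 Lefty2 UMIs where Lefty1 was at 0 (856 cells) and 1.93 where it was over 5 (2057 cells), while Nodal went from 0.54 to 0.70. In naive-like cells at time 2 Lefty2 went from 0.87 to 2.63 and Nodal from 0.34 to 0.45.

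**Figure D5:**
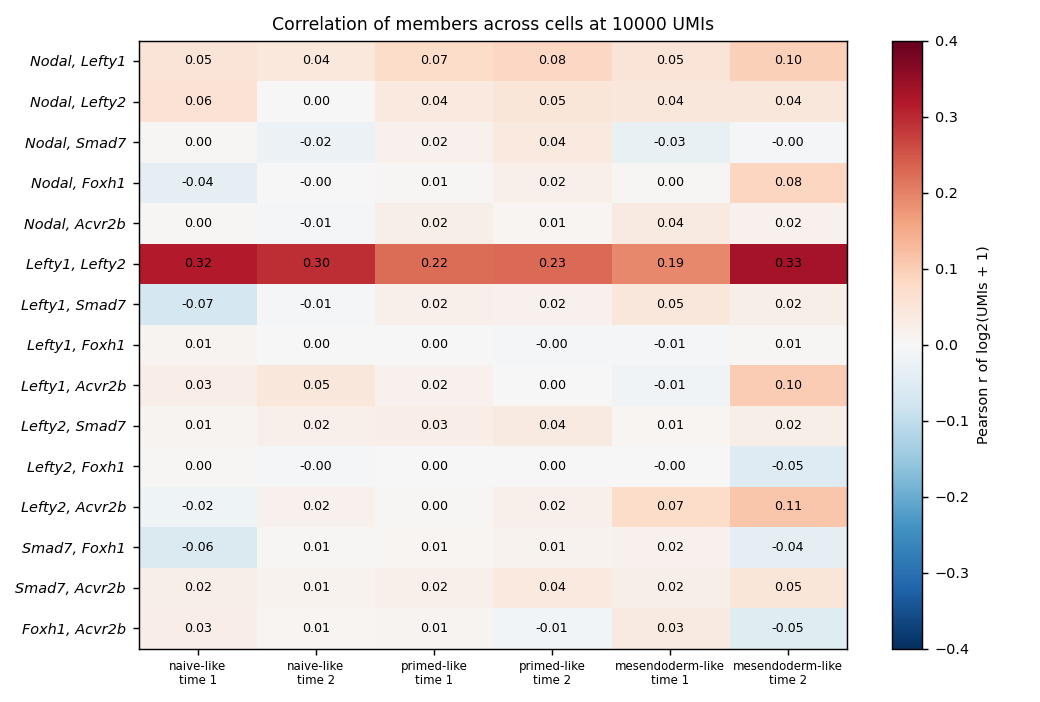
Pearson correlation across cells, thinned to 10000 UMIs each, for the 15 pairs of genes (rows) in each class and library (columns); the colour and the printed value are r. The row of Lefty1 and Lefty2 runs from 0.19 to 0.33, and no other value exceeds 0.11.

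The Lefty genes were also uneven between cells of 1 class. The variance of their UMIs divided by the mean, which is near 1 for counting noise alone, was 4.65 to 6.91 for Lefty1 and 2.64 to 7.52 for Lefty2 over the 6 groups, some of which pool clusters of different levels. In fibroblast-like cells it was 3.01 and 4.41 for Lefty1 and 1.81 and 2.43 for Lefty2 at times 1 and 2. It was 1.13 to 1.3 for Nodal, 1.24 to 1.64 for Smad7 and 1.02 to 1.07 for Acvr2b. For the same relative spread between cells this quotient rises with the mean, and the Lefty genes had the highest means. It is therefore not read as more unevenness of the Lefty genes than of the others. In primed-like cells at time 2, 11.7% of cells had no Lefty1 UMI and 3.74% had over 20. Both Lefty genes were seen in 55.4% of naive-like cells at time 1 and 30.1% at time 2, and in 51.3% and 55.7% of primed-like cells, against 30.8% and 14.1% of fibroblast-like cells, all at 10000 UMIs. Cells with Lefty2 alone were 25.2% and 24.6% of the naive-like class, against 9.17% and 9.13% of fibroblast-like cells. In the primed-like class they were 6.46% and 5.52%. These shares are not read against background. Only 14.2% and 11.7% of that class lacked a Lefty1 UMI, against 40.8% and 68.3% of fibroblast-like cells. Where Lefty1 was absent, Lefty2 was seen in 390 of 856 and 249 of 529 primed-like cells. The fibroblast-like counts were 42 of 187 and 61 of 456.

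Of the 27 other pathway genes, fixed as a list, 18 could be compared in naive-like cells over passage and 2 were called, 1 in each direction (4.88% of all genes called). The higher was Inhbb, an activin subunit, at 1.2 (2.04 to 5.98 CPM). None of 17 was called in primed-like cells (2.05% of all genes), and 1 of 20 in mesendoderm-like cells (2.79%), Fst, which encodes the activin antagonist follistatin, at 1.1. Primed-like over naive-like cells, 4 of 18 were called higher and 1 lower at time 1 (14.4% of all genes called either way), and 4 of 19 higher and 1 lower at time 2 (9.62%). Fst (3.11 and 3.29) and the SMAD feedback genes Pmepa1 (1.02 and 1.25) and Skil (1.27 and 1.24) were among those higher both times. Pmepa1 and Skil were also higher in mesendoderm-like than in naive-like cells at both times. Tdgf1, the co-receptor Cripto, was not called in any of these comparisons and stood at 644 and 399 CPM in naive-like, 806 and 564 in primed-like and 598 and 518 in mesendoderm-like cells. Mesendoderm-like over naive-like cells, 6 of 21 were higher and 2 lower at time 1 (19.2% of all genes called either way), and 10 of 22 higher and 3 lower at time 2 (22.0%). The genes called at time 2 included Cer1, a secreted Nodal inhibitor, at 3.94 (14.7 against 0.0227 CPM), the co-receptor gene Cfc1 at 2.09, the receptor gene Tgfbr1 at 1.14, Smad4 at 1.16 and the ligand gene Gdf3 at -2.26. Fst, Pmepa1 and Furin were also abundant in fibroblast-like cells, at 62.8, 429 and 41.8 CPM at time 1, and the part of feeder RNA in these values was not tested.

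Clusters were also searched for genes whose level followed a member. Over 23 points of cluster and library with at least 50 cells, the correlation of log2(CPM + 1) was highest with Zbp1 (0.90), Slain1 (0.87) and Pim2 (0.87) for Lefty1, and with Dsg2 (0.82), Susd4 (0.81) and She (0.80) for Lefty2. The next were Fgf15 and Tmem238 for Lefty1 and B3gnt5 and Mme for Lefty2. For Nodal they were Dnajc24 (0.88), Lsm5 (0.88), Bcam (0.87), Ppp1r1a (0.84) and Ndufaf6 (0.84), and for Acvr2b Arid3b (0.95), Psip1 (0.94), Nae1 (0.92), Acsl3 (0.91) and Lin28a (0.91). Smad7 was followed most closely by Pcgf3 (0.94), Gnaq, Nbeal1, Ahcyl1 and Cpne3 (0.93 each), where the fibroblast-like clusters hold the highest levels. For Foxh1, at most 2.39 CPM, Rnf144a, Ppp2cb, Dck and Srsf9 were among the first 5, at 0.81 to 0.82. Among the members themselves Nodal and Lefty1 were most alike over clusters, at 0.73, and Lefty1 and Lefty2 stood at 0.30. These are descriptions over points that share 2 libraries, chosen as the highest of 12237 genes.

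Both Lefty genes lie on chromosome 1, and a gain of that chromosome was called in 63.3% of naive-like and 36.7% of primed-like cells at time 2, against 3.36% and 0.563% at time 1. The call used the chromosome's other genes, relative to all autosomes. Naive-like cells of time 2 with the gain had Lefty1 at 114 CPM against 148 without it, and Lefty2 at 101 against 161. Within the Gm46332-led cluster Lefty2 was at 102 against 97.6 CPM, and within the Nanos3-led cluster at 99.6 against 96.4. Primed-like cells with the gain had Lefty1 at 707 CPM against 542, and Lefty2 at 152 against 145. No member was past 2-fold in either class, beside 0.794% of all genes in naive-like and 0.281% in primed-like cells.

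Cells without Y-linked UMIs were split by X dosage, their X-linked UMIs over their autosomal UMIs. In naive-like cells of high X dosage Lefty2 stood at 369 CPM at time 1 (1115 cells) against 104 in those of low X dosage (216 cells), a log2 ratio of 1.82 (counting SE 0.04). At time 2 it stood at 257 against 101 CPM, a ratio of 1.34. Of all genes, 5.18% were past 2-fold in this split at time 1 and 3.94% at time 2. Lefty1 followed with 0.82 and 0.46, and Nodal with 0.21 and -0.11. Within the Nanos3-led cluster at time 2, the Lefty2 ratio was -0.07, and within the Gm46332-led cluster 0.53. In primed-like cells it was 0.63 at time 1 and 0.26 at time 2, and no member was past 2-fold, beside 3.09% and 1.27% of all genes. Of the 2516 naive-like cells of high X dosage at time 2, 380 were Nanos3-led and 120 Gm46332-led, so that X dosage and cluster cannot be told apart in the whole-class ratio.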

How the data were processed

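The values deposited by the authors are raw UMI counts, 1 for each gene in each barcode, for 1 gene expression library per time point (10x version 3.1 chemistry, per the labels' protocols). Cell Ranger 6.1.2 and the builds mm10 and GRCm38 are named in the submitters' processing notes. Positions came from GENCODE M21 (GRCm38), which matched 32235 of 32285 genes. The UMI minimum of a cell was 18315 at time 1 and 18645 at time 2 (a share of 0.1 of the 99th percentile over the 20000 largest barcodes), with a minimum of 1000 genes and no more than 10% of UMIs from mitochondrial genes. Scrublet's automatic threshold was unstable between settings (it marked 0% to 11.6% of cells at time 1), so the highest-scoring 10% of cells per library were removed, a choice made after seeing this. Clustering in scanpy 1.11.5 used 2000 variable genes, 30 components, 15 neighbours and Leiden resolution 0.5. Fixed markers named clusters, by a rule set after the clusters were seen: most of a class's markers raised 2-fold and at least 1, and no fewer than of any other class, among the 10 leading genes. Naive-like clusters had all 12 pluripotent markers detected, most naive markers above the other cells and no other class's marker among the leading genes. Clusters with very high UMIs stayed unnamed. Levels are CPM of summed UMIs with exact Poisson 95% intervals, shares have exact Clopper-Pearson 95% intervals at 10000 UMIs per cell. Ratios use CPM plus 1 and genes of at least 5 CPM in either group. A chromosome 1 gain was a share of UMIs at least 1.3 times the time 1 median of the class, and high X dosage a ratio at least 1.2 times the median of cells with Y-linked UMIs. The genes named as most alike are from the 5 highest correlations per member. Some genes that these rules name, and some sequences, are not reported here. The contrast was tested on simulated counts that held counting noise only. That test does not bear on variation between cells, lines or clusters, or on calls close to 2-fold. The members and lists were chosen with earlier results of these data known. Alternatives changed the CPM added, scaling (edgeR 4.0.16), filters, doublets, clustering and thresholds.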

Additional observations from a re-analysis of the deposited data

Results flagged for a closer look

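Lefty2 moved in opposite directions between groups in 4 comparisons, in which both counting intervals excluded 0 and at least one value was past 2-fold. None of these differences was tested, since each group is 1 library. Over passage its log2 ratio was -1.37 in naive-like cells, against 0.05 in primed-like and 0.40 in mesendoderm-like cells. Without the Id1-led cluster the primed-like value was 0.77, which is the value of the Fgf8-led cluster. The 0.05 is no larger than the 0.06 by which trimmed-mean scaling moved the median of all genes there. Its interval covers counting error only. Primed-like over naive-like cells, it was -1.16 at time 1 against 0.26 at time 2. Mesendoderm-like over naive-like cells, it was 1.52 at time 2 against -0.25 at time 1. All 4 involve the naive-like class, whose time 1 cells are mostly of the Jam2-led cluster. Without that cluster the values were -0.10 over passage, 0.40 for primed-like over naive-like and 1.31 for mesendoderm-like over naive-like cells at time 1, so that the latter 2 had the same direction at both times.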

How the results depend on the processing

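The numbers of members called moved as follows, each with the share of all genes called in the same setting. Over passage in naive-like cells, where 1 was called, the number was 3 at 1.5-fold (17.8%), 2 with cells of at least 5000 UMIs (6.02%), 0 over all filtered cells (3.78%) and 0 without the Jam2-led cluster (2.51%). In primed-like cells it went from 0 to 1, Lefty2, with doublets kept (0.712%), where the Id1-led cluster was also unnamed and the class held 111 Fgf8-led cells at time 2. Primed-like over naive-like cells, it went from 3 to 1 at time 1 without the Jam2-led cluster (11.5%), where Lefty2 turned to 0.40, and to 2 with 5 CPM added (8.55%), doublets kept (15.5%), resolution 1.0 (15.7%) or pathway genes in the clustering (15.4%). At time 2 it went from 1 to 3 at 1.5-fold (20.4%) and to 2, Lefty1 and Lefty2, with doublets kept (15.6%), at Leiden resolution 1.0 (14.8%) and with pathway genes in the clustering (16.7%). In the last 3 settings the Id1-led cluster was unnamed, so that the primed-like class changed with the setting. At resolution 1.0 and with pathway genes in the clustering the mesendoderm-like class changed too, to Lhx1-led clusters of 211 and 223 cells at time 1 in place of 1115 Krt8-led cells. Mesendoderm-like over naive-like cells, it went from 0 at time 1 to 1, Acvr2b, at 1.5-fold (34.9%), at resolution 1.0 (22.4%), with pathway genes in the clustering (22.6%) and in thinned cells (19.5%), and to 2 without the Jam2-led cluster (17.7%). At time 2 it went from 3 to 5 at 1.5-fold (40.3%), to 2 with 5 CPM added (14.2%), trimmed-mean scaling (22.4%) or doublets kept (20.1%), and to 4 at resolution 1.0 (21.5%), with pathway genes in the clustering (22.8%), in thinned cells (24.0%) and without the Jam2-led cluster (22.6%). Mesendoderm-like over primed-like cells, it went from 0 at time 1 to 2 at 1.5-fold (11%) and to 1, Lefty2, at resolution 1.0 (7.02%), with pathway genes in the clustering (7.05%) and in thinned cells (4.16%). At time 2 it went from 1 to 2 with trimmed-mean scaling (8.28%) and at 1.5-fold (21.6%), and to 0 with doublets kept (5.96%). With doublets kept the primed-like class again lacked the Id1-led cluster and held 111 Fgf8-led cells, so the 2 changes cannot be told apart. Within clusters 1.5-fold gave 3 members in the H19-led cluster (5.48%) and 1 each in the Nanos3-led (7.87%), Fgf8-led (3.46%) and Jam2-led (5.69%) clusters, in place of 0. The median correlation of Lefty1 and Lefty2 was 0.26, and 0.37 with all UMIs scaled to 10000. In all, 108 alternatives gave a count within 1.5 times or stayed within the spread between groups, and 28 did not. The 108 include moves from 3 to 2 or 4 and counts of 0 that stayed at 0. They do not say that the same members were called. Among levels and ratios of single members, 560 kept their call or stayed within counting error, and 331 moved beyond it. A further 36 gained a call in the same direction, 14 lost one and 1 called ratio reversed. Trimmed-mean scaling moved the median log2 ratio of all genes by 0.20 for naive-like cells over passage. At time 2 it moved it by -0.11 for primed-like over naive-like, -0.33 for mesendoderm-like over naive-like and -0.22 for mesendoderm-like over primed-like cells. The cause of these shifts was not tested. The alternatives without the Jam2-led and Id1-led clusters were chosen after seeing the data. No paired analysis over passage was possible because each time point has 1 library, and none was run between classes within the 2 libraries. No ratio could be given for Foxh1 at its depth.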
